A study of Mus with 8 samples.

Results

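Blood stem and progenitor cells of 14-day-old (P14) mice that carried the interferon receptor genotype Ifnar-/- were compared with those of Ifnar+/- mice of the same age. The cells were the Lin-Sca1+Kit+ fraction (LSK), a sorted population enriched in stem cells and early multipotent progenitors. A barcode counted as a cell when it held at least 7500 gene UMI (unique molecules of RNA) and at most 10% of them came from mitochondrial genes. By this rule the Ifnar-/- library held 4387 cells and the Ifnar+/- library 4615, together 9002 of the 35549 cells in the 8 libraries of the study. The study measured RNA and 10 antibody tags in the same single cells (CITE-seq), in Lin-Kit+ cells (LK) and LSK cells of newborn (P0) and P14 mice, each as Ifnar+/- and Ifnar-/-. Both genotypes carry at least 1 altered Ifnar allele, so the reference here is a heterozygote and no wild-type library was analysed. The labels write Ifnar without a number, and give neither the allele, the strain, the organ nor the number of mice. Each group was 1 library, so no value below has a replicate error and no p-value is given. Paired values give Ifnar-/- cells first and Ifnar+/- cells after them. The intervals in square brackets are 95% intervals that cover counting error only.

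Type I interferons bind a receptor made of IFNAR1 and IFNAR2. The kinases JAK1 and TYK2 then activate transcription factors that join IRF9 and switch on interferon-stimulated genes, among them antiviral enzymes, GTPases, the ubiquitin-like modifier ISG15 and the MHC class I pathway. Blood stem cells are known to respond to interferon, and Sca1 (gene Ly6a), one of the proteins used to sort LSK cells, is itself an interferon-responsive protein.

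The 2 libraries were close in depth, with 124869618 gene UMI over the Ifnar-/- cells and 130788076 over the Ifnar+/- cells. The median cell held 25647 and 25597 UMI, 5385 and 5360 genes, and 3.76% and 3.75% mitochondrial UMI. They were not matched for sex. Of the cells that could be called male or female by Y-linked genes and Xist, 38.8% [37.3 to 40.4] were male in the Ifnar-/- library and 63.8% [62.3 to 65.3] in the Ifnar+/- library, with 498 and 535 cells left without a call, so values within male and within female cells are given where they bear on a result. The 2 libraries shared 4 cell barcodes, within the 1 to 10 shared by any pair of the 8 libraries. Kit, the receptor used in the sort, stood at 231 against 227 CPM (UMI per 1e6 gene UMI of the library). The summed level of T cell markers was 25.4 and 25.6 CPM, of macrophage markers 9.95 and 11.4 CPM, of NK cell markers 1.43 and 2.61 CPM, and of mast and basophil markers 9.71 and 22.8 CPM. B cell markers summed to 44.2 and 47.9 CPM, plasmacytoid dendritic cell markers to 21.2 and 24.4 CPM, stroma markers to 13.5 and 14.8 CPM, hepatocyte markers to 48.7 and 51.1 CPM and endothelial markers, several of which LSK cells express themselves, to 421 and 398 CPM.

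Most genes stood at nearly the same level in both genotypes. Among 13517 genes with at least 50 UMI in 1 library, 73 were at least 2-fold lower in Ifnar-/- cells (0.54%) and 18 were at least 2-fold higher (0.133%). Log2 ratios are Ifnar-/- over Ifnar+/- after adding 0.5 counts to each library, and their median over all 15693 genes with at least 20 UMI in both libraries together was 0.01. Of the 73 lower genes, 40 belonged to the interferon and MHC lists used here, and of the 18 higher genes none did. These lists hold a small part of all genes, the largest having 56 measured members among 15693 genes. None of 18 is therefore not read as a result. Among 15693 genes under the lower minimum of 20 UMI, 0.937% were at least 2-fold lower and 0.739% at least 2-fold higher, and these are the shares beside which the list counts below are to be read. A negative log2 ratio was found in 7148 of the 15693 genes, the base for counts of negative list members. Under that minimum 147 genes were 2-fold lower and 116 higher, and in male cells alone 161 and 101. The excess of lower genes turned in female cells alone (112 and 117) and at 1.5-fold over all cells (381 and 447). With the minimum of 50 UMI it turned in neither, at 49 and 27 in female cells and 161 and 111 at 1.5-fold.

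**Figure D1:**
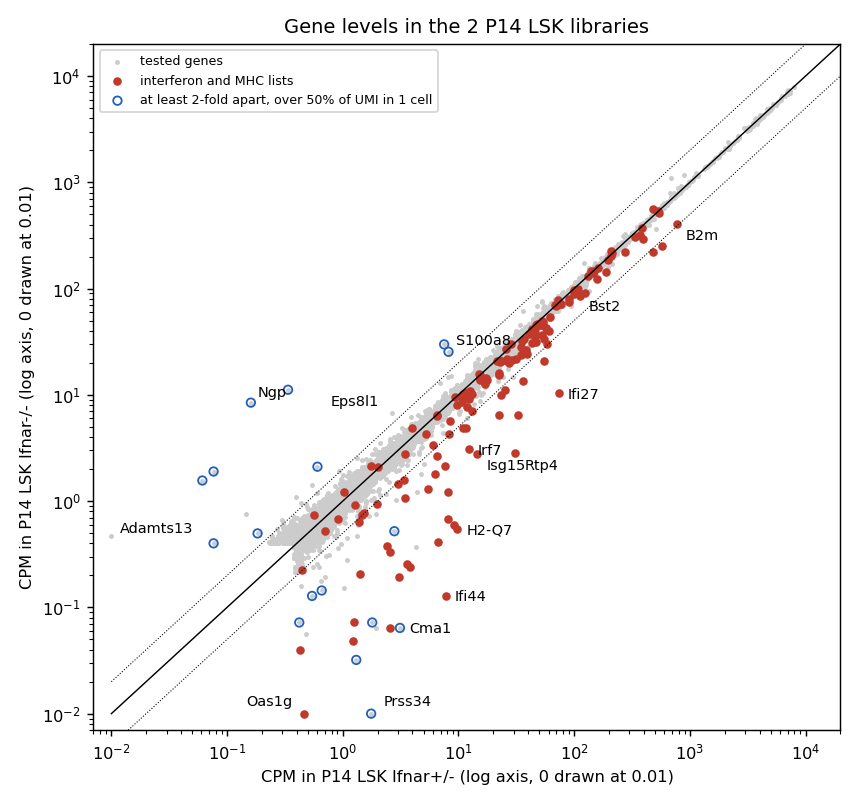
CPM of every tested gene in Ifnar+/- (x axis) and Ifnar-/- (y axis) P14 LSK cells, both log axes, with the line of equality and dotted lines at 2-fold. Grey points are the 13517 tested genes, red points are members of the interferon and MHC lists, and blue circles mark genes past 2-fold with over 50% of their UMI in 1 cell; Oas1g and Prss34 (0 UMI in Ifnar-/-) and Adamts13 (0 UMI in Ifnar+/-) are drawn at 0.01.

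Whether the receptor was lost could not be read from its RNA. Ifnar1, the chain most often deleted in such mice (chromosome 16, 91485032 to 91510523 in GRCm38.p6) had 33.4 against 36.9 CPM, a log2 ratio of -0.15 [-0.21 to -0.09]. Counts from a 3' library do not show whether a transcript makes working receptor. Ifnar2, the partner chain, had 97.4 and 98.7 CPM. Of the 40 genes nearest to Ifnar1, 25 were measured with a median log2 ratio of -0.00, and 1 of them, Gm10785, was over 1.5-fold lower (36 against 60 UMI).

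The receptor pathway itself was little altered apart from its interferon-inducible members. Over the 15 receptor and signalling genes the median log2 ratio was 0.00, 2 were at least 2-fold lower and none at least 2-fold higher. The kinases Jak1 (146 and 139 CPM) and Tyk2 (1939 and 1964 UMI) and the interferon-gamma receptor chain Ifngr1 (78.7 and 72.6 CPM) were level within 0.12 on the log2 scale. Irf9, a DNA-binding part of the interferon-activated complex, had 13.5 CPM against 36.2 CPM, a log2 ratio of -1.43 [-1.51 to -1.34]. Usp18, which limits receptor signalling and removes ISG15 from proteins, had 32 UMI against 472 and a log2 ratio of -3.79 [-4.38 to -3.30]. Stat2, a factor of the same complex, stood at 10.4 against 12.5 CPM and -0.27 [-0.38 to -0.17]. The suppressor genes Socs1 (805 and 849 UMI) and Socs3 (261 and 262 UMI) did not stand apart.

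Among 11 interferon regulatory factors the median log2 ratio was -0.06, and 2 were at least 2-fold lower, Irf9 and Irf7. Irf7, the factor that amplifies type I interferon production, was detected in 7.80% of Ifnar-/- and 22.4% of Ifnar+/- cells, at 3.07 and 12.3 CPM (log2 interval [-2.17 to -1.84]). Irf8, a factor of monocyte and dendritic cell development, had 15.5 and 22.5 CPM (-0.54). Irf1 (-0.12), Irf2 (-0.05) and Irf3 (-0.06) were close to level. No interferon gene was measured above the minimum of 20 UMI. Ifnb1, Ifng and 9 Ifna genes were at 0 UMI in both libraries, and the other ligand genes had 8 UMI or fewer in either library.

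Of 17 measured nucleic acid sensors, all 17 had a negative log2 ratio, 6 were at least 2-fold lower, and the median was -0.42. Zbp1, a sensor of Z-form nucleic acid, had 41 UMI in Ifnar-/- and 338 in Ifnar+/- cells (-2.96), and Dhx58 (LGP2) had 609 and 1442 UMI (-1.18). The RNA sensors Ddx58 (RIG-I; 21.6 and 31.4 CPM, -0.54) and Ifih1 (MDA5; 12.6 and 17.1 CPM, -0.44) and the kinase Eif2ak2 (PKR; 42.9 and 57.2 CPM, -0.42) differed less, and the adaptors Mavs (-0.13) and Tmem173 (STING; -0.10) least. Within the Ifi200 family, Ifi213 had 6 against 159 UMI (-4.55) and Ifi203, the most abundant, 221 against 275 CPM (-0.32). Reads of such near-identical families can be split between copies in counting, so the single members of the Ifi200, Oas, Gbp, Tgtp and H2-Q families are uncertain.

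The antiviral effectors formed the largest group. Of 56 measured, 54 had a negative log2 ratio, 18 were at least 2-fold lower, none was at least 2-fold higher, and the median was -0.46. The largest differences were in genes that few Ifnar-/- cells held at all. Ifi44 (chromosome 3, 151730922 to 151749910) had 16 UMI in Ifnar-/- and 1011 in Ifnar+/- cells, a log2 ratio of -5.87 [-6.73 to -5.21]. The oligoadenylate synthetases, enzymes that sense double-stranded RNA, were among the lowest: Oas2 had 8 against 337 UMI (-5.24), Oas1a 51 against 864 UMI (-4.00) and Oas3 85 against 1064 UMI (-3.57). Oas1g had 0 UMI in Ifnar-/- and 60 in Ifnar+/- cells, at least 19.1-fold lower when the library at 0 is set to 3 counts.

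More abundant effectors showed the same direction to very different degrees. Ifi27 (chromosome 12, 103434189 to 103440245), a small mitochondrial membrane protein, had 10.3 against 73.2 CPM and was detected in 18.7% and 59.6% of them (-2.83 [-2.92 to -2.75]). Rtp4 (chromosome 16, 23520219 to 23614222), a chaperone that also restricts viruses, had 351 and 4054 UMI in 6.38% and 37.8% of cells (-3.46 [-3.62 to -3.31]). Ifit1, which binds foreign RNA caps, had 1.22 and 8.04 CPM (-2.72), and Rsad2 (viperin) 2.15 and 7.72 CPM (-1.84). Bst2 (tetherin), which holds virus particles at the cell surface, kept 84.4 CPM against 112 CPM and was found in 83.9% and 89.6% of cells (-0.41). The transmembrane proteins of the Ifitm cluster differed among themselves, with Ifitm3 lower (295.5 and 392.3 CPM, -0.41), Ifitm2 level (536 and 534 CPM, 0.01) and Ifitm1 the most positive of the list (560 and 480 CPM, 0.22). Samhd1 (-0.07) and Apobec3 (-0.04), 2 further restriction factors, were close to level.

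All 16 interferon-inducible GTPases had a negative log2 ratio, with a median of -0.73 and 5 at least 2-fold lower. In female cells 15 of the 16 were negative, with a median of -0.52. Iigp1, an immunity-related GTPase that attacks pathogen vacuoles, had 74 against 1199 UMI (-3.94 [-4.31 to -3.61]). Gbp6 (-2.73), Tgtp1 (-2.67), Gvin1 (-1.70) and Tgtp2 (-1.25) followed, while the most abundant members, Gbp7 (54.0 and 62.2 CPM, -0.20) and Ifi47 (36.9 and 52.3 CPM, -0.50), were within 2-fold. In the ISG15 system the modifier stood apart from its ligases. Isg15 had 2.79 against 14.5 CPM (-2.38 [-2.55 to -2.22]), whereas its activating enzyme Uba7 (-0.13), conjugating enzyme Ube2l6 (-0.35) and ligase Herc6 (-0.28) differed by less than 1.5-fold.

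MHC class I genes were the most abundant transcripts with a large difference. B2m, the shared light chain (chromosome 2, 122147687 to 122153082), had 403 against 772 CPM, a log2 ratio of -0.94 [-0.95 to -0.92]. The heavy chain H2-K1 had 249 and 576 CPM (-1.21 [-1.23 to -1.19]) and H2-D1 222 and 481 CPM (-1.12 [-1.14 to -1.10]). Each of these 3 was found in between 97.7% and 100% of cells of either library. The non-classical chain H2-Q7 had 68 against 1281 UMI (-4.16) and H2-Q4 20.7 against 54.3 CPM (-1.39).

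Over the 25 measured genes of MHC class I and antigen processing the median was -0.36, with 8 at least 2-fold lower. Nlrc5, the transactivator of MHC class I genes, had 161 against 712 UMI (-2.07 [-2.33 to -1.83]), and the peptide transporter chain Tap1 had 29.8 against 58.4 CPM (-0.97), while its partner Tap2 stood at 71.6 and 76.1 CPM (-0.09). The immunoproteasome subunits Psmb9 (-0.36), Psmb8 (-0.21) and Psmb10 (-0.13) differed by less than 1.5-fold, and the chaperones Calr (-0.05), Canx (0.01) and Pdia3 (0.10) were level. The 9 MHC class II genes summed to 166 against 187 CPM, with a median of -0.16. Of these, H2-Aa was at least 2-fold lower (199 against 445 UMI, -1.09, and -0.78 without the 1 richest cell of each library), and it was found in under 3% of cells of either library (2.83% and 2.97%).

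The Ly6 family includes the sorted protein Sca1. Its gene Ly6a had 31.4 against 47.0 CPM and was detected in 47.5% and 55.2% of them (-0.58 [-0.64 to -0.52]). Because Sca1 protein set the gate, cells with low Sca1 did not enter either library, and this bears on every share of cells below. Ly6e, a broadly expressed member, had 303 and 337 CPM (-0.15). Of 8 measured members, 1 was at least 2-fold lower (Ly6k, 13 against 41 UMI) and 1 at least 2-fold higher (Ly6h, 14 against 7 UMI), both at few counts. The family's median was -0.28 over all cells but 0.22 in female cells (5 members measured) and -0.35 in male cells (6 measured), so its direction turned between the sexes, whereas Ly6a itself had -0.63 and -0.58.

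**Figure D2:**
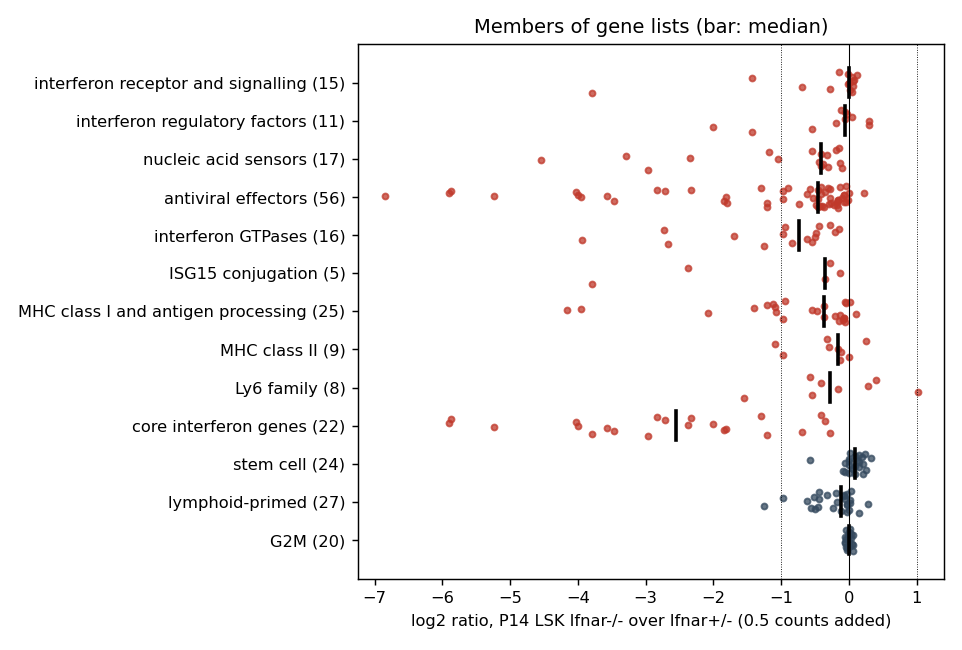
Log2 ratio of each measured list member, Ifnar-/- over Ifnar+/- P14 LSK cells (x axis), by list (y axis, number of measured members in brackets), with a black bar at the list median. Dotted lines mark 2-fold; the core interferon genes centre on -2.55, while the stem cell (0.09), lymphoid-primed (-0.11) and G2M (0.00) lists centre near 0.

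Cell by cell, interferon transcripts in Ifnar+/- cells were a low general level with a tail of high cells, and in Ifnar-/- cells both were lower. A core list of 22 measured interferon genes had a median log2 ratio of -2.55, with 18 at least 2-fold lower and none higher. It summed to 180 CPM [178 to 182] in Ifnar-/- and 443 CPM [439 to 447] in Ifnar+/- cells. This list is not a separate group. Ifi44, Oas2, Rtp4, Ifi27, Isg15, Usp18, Irf7 and Zbp1, among others, are also on the lists above and are counted there too. Like those lists, it was chosen with earlier results of these data known. With each cell thinned to 7500 UMI, 73.1% [71.7 to 74.4] of Ifnar-/- and 91.2% [90.3 to 92.0] of Ifnar+/- cells held at least 1 core UMI. At least 5 core UMI were held by 101 Ifnar-/- cells, 2.30% [1.88 to 2.79], and by 1201 Ifnar+/- cells, 26.0% [24.8 to 27.3]. Without thinning these shares were 49.0% and 82.3%. At least 10 core UMI were held by 6 Ifnar-/- cells (0.137%) and 249 Ifnar+/- cells. The mean was 1.41 and 3.62 UMI per cell, and the variance over the mean was 1.31 and 4.85. The highest cell of the Ifnar+/- library held 94 core UMI and that of the Ifnar-/- library 24.

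The remaining core signal in Ifnar-/- cells came from a different mixture of genes. Bst2 supplied 46.9% of core UMI in Ifnar-/- and 25.3% in Ifnar+/- cells. Ifi27 supplied 5.72% and 16.5%, and Rtp4 1.56% and 6.998%. The share of cells with at least 5 core UMI was 0.798% and 17.1% when Bst2 was left out, and 1.82% and 19.05% when Ifi27 was left out. UMI of free RNA, which reach barcodes without a cell, carried the core genes at 168 and 445 CPM, so some core UMI in a cell can be background, and no cell type lacking these genes was at hand to measure it.

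**Figure D3:**
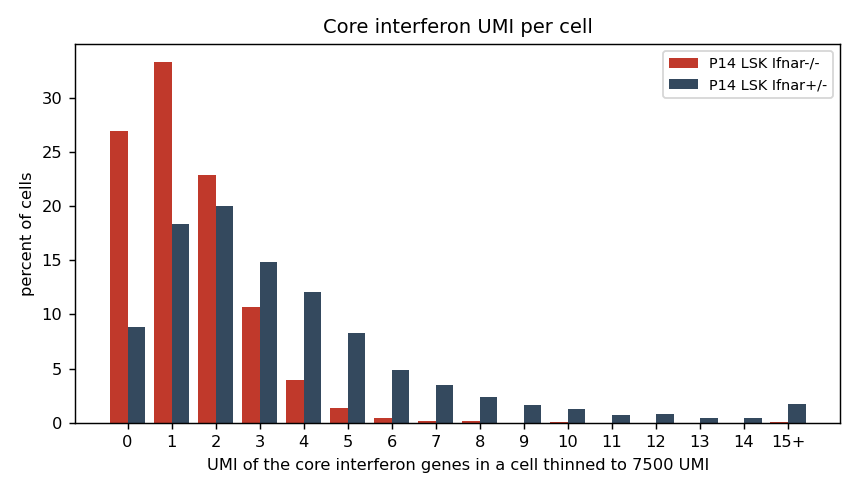
Percent of cells (y axis, bars from 0) by the number of core interferon UMI in a cell thinned to 7500 UMI (x axis, last bin 15 or more), for Ifnar-/- (red) and Ifnar+/- (dark) P14 LSK cells. The Ifnar-/- library peaks at 1 UMI, and 2.30% of its cells reach 5 or more against 26.0% of the Ifnar+/- library.

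The core list was lower in each of 3 marker gates and in both sexes. Cells were split by marker UMI after thinning into a stem gate (at least 2 UMI over Procr, Mecom and Hlf, no Dntt), a lymphoid gate (Dntt and Flt3, none of the 3 stem genes) and the rest. These gates are ranges of expression, not cell types: 425 Ifnar-/- and 419 Ifnar+/- cells of the stem gate lay at its limit, and its median cell still had 124 CPM of the progenitor gene Flt3 in Ifnar-/- and 153 CPM of the granulocyte protease gene Prtn3, with 0 CPM of Mpo, a further granulocyte gene. The core list's median log2 ratio was -2.27 in the stem gate, -2.99 in the lymphoid gate and -2.63 in the remaining cells. The share of cells with at least 5 core UMI was 2.74% and 26.9% in the stem gate, 2.47% and 30.4% in the lymphoid gate and 1.38% and 23.5% elsewhere. It was 2.31% and 23.2% in female cells and 2.32% and 27.5% in male cells, with core medians of -2.17 and -2.70. For MHC class I the median was -0.41 in the stem gate, -0.30 in the lymphoid gate, -0.37 in female and -0.36 in male cells.

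The same ratios were read in the other 3 pairs of libraries, which share no library with the P14 LSK pair. The median over all genes was -0.03 in P14 LK, 0.17 in P0 LSK and -0.03 in P0 LK, so P0 LSK ratios are to be read against 0.17. The core list had a median of -2.37 in P14 LK, -5.03 in P0 LSK and -5.17 in P0 LK cells. Of the 73 genes at least 2-fold lower in P14 LSK cells, 52 were also at least 2-fold lower in P14 LK (0.784% of all 13517 genes were), 60 in P0 LSK (2.06%) and 49 in P0 LK (1.24%), and 43 were so in all 3 (0.37%). Of the 18 higher genes, 6 were at least 2-fold higher in P14 LK (0.148% of all genes), 10 in P0 LSK (3.05%), none in P0 LK (0.0666%) and so none in all 3. No UMI minimum was set in the other pairs, so some matches rest on few counts. Among the higher genes in P0 LSK, Chil3 had 1 against 0 UMI, Bcl11b 2 against 0, Ngp 3 against 0 and Lcn2 5 against 3. Chil3, Ngp and Lcn2 also had over 50% of their Ifnar-/- P14 LSK UMI in 1 cell. Among the lower genes in P14 LK, Mcpt4 had 0 against 1 UMI and Tpsb2 0 against 3. Rtp4 had -4.11 in P14 LK and -6.88 in P0 LSK, and Irf7 -2.42 and -4.90. H2-K1 varied less, at -1.21 in P14 LSK, -0.87 in P14 LK, -1.35 in P0 LSK and -0.55 in P0 LK. Differences between pairs have no test, since each pair is 1 library a side.

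Outside the interferon and MHC lists, 33 further genes were at least 2-fold lower, and several have names or families close to the listed ones. Gm4951, a predicted relative of the Iigp GTPases, had 8 against 253 UMI (-4.83), and Gm4841 7 against 63 UMI (-3.01). Gm4070, on chromosome 7 near the listed GTPase gene Gvin1, had 151 against 568 UMI (-1.84). Ifi206 of the Ifi200 family had 46 against 567 UMI (-3.54) and Trim30c 49 against 127 UMI (-1.30). Among further genes, Ms4a4c had 24 against 91 UMI (-1.83), Mpeg1, a pore-forming macrophage protein, 91 against 220 UMI (-1.20), and the chemokine Ccl5 226 against 615 UMI (-1.38). Ccl5 was held by 61 and 93 cells. The alpha-globin genes Hba-a1 (56 against 143 UMI, -1.28) and Hba-a2 (38 against 94 UMI, -1.23) were also lower, whereas the beta-globin gene Hbb-bt was level at 418 CPM in both.

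A part of the remaining calls rested on 1 cell each. In 8 of the 73 lower and 9 of the 18 higher genes, 1 cell held over 50% of the UMI in the library with the higher level. With the 1 cell richest in a gene left out of each library, 66 of the 73 and 10 of the 18 still had a ratio past 2-fold. In the Ifnar-/- library 1 cell of 21002 UMI held 9143 of the 10088 UMI of 8 neutrophil granule genes (43.5% of the cell), with 0 UMI of Kit and of Ly6a. Ngp, a neutrophil granule protein, had 1054 UMI against 21 (5.68) and 0.64 without its top cells, S100a8 3172 against 1073 UMI (1.63, and 0.08 without them) and Camp, cathelicidin, 1393 against 44 UMI (5.04, and 2.40 without them, with 107 and 19 cells holding it). Free RNA carried the 8 genes at 760 CPM in the Ifnar-/- and 23.4 CPM in the Ifnar+/- library. With free RNA set at 5% of each library's UMI and subtracted, S100a8 stood at 0.57, no longer past 2-fold, Camp at 3.61 and Ngp at 5.57. In this setting 15 of the 18 higher genes were still past 2-fold. The 5% was chosen, and the true share of free RNA was not measured. S100a8 had 281 CPM in free RNA of the Ifnar-/- library, and 1 cell held 2858 of its 3172 UMI. For S100a8 this setting therefore removed more UMI than all other Ifnar-/- cells held, and no share of background is read from it.

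Several mast cell protease genes stood lower in Ifnar-/- cells. In the Ifnar+/- library 1 cell of 9276 UMI held 967 UMI of 5 mast granule genes. The chymase Cma1 had 8 UMI in Ifnar-/- and 408 in Ifnar+/- cells (-5.52, and -0.14 without its top cells), Tpsb2, a tryptase, 4 against 171 UMI (-5.19, and 0.07) and Mcpt4 9 against 235 UMI (-4.56, and -0.80). Prss34, a basophil and mast cell protease, had 0 UMI against 230 UMI in 6 cells, at least 73.2-fold lower, with 143 of the 230 UMI in another cell. Its ratio was -8.78 over all cells, -7.38 without that cell and -3.10 without all cells high in granule genes. Ms4a2, a chain of the IgE receptor, had no dominant cell, with 45 against 118 UMI (-1.31, and -1.78 without its top cells).

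**Figure D4:**
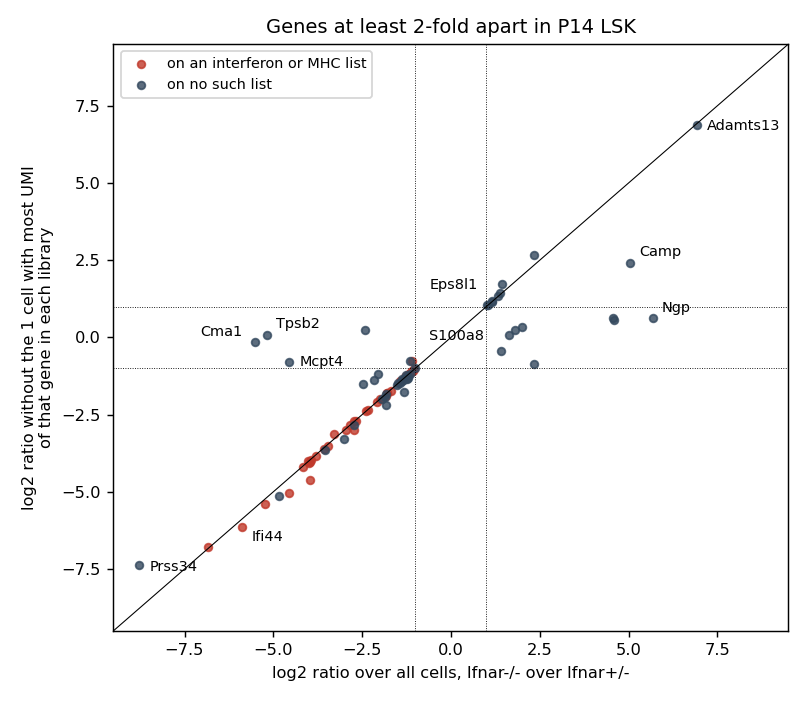
Log2 ratio, Ifnar-/- over Ifnar+/-, of the 91 genes past 2-fold in P14 LSK cells over all cells (x axis) and without the 1 cell richest in that gene in each library (y axis). Points on the diagonal, such as Ifi44, Adamts13 and Eps8l1, keep their ratio; Cma1, Tpsb2, Ngp and S100a8 move toward 0.

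Some genes were higher in Ifnar-/- cells without 1 dominant cell, in many cells or in few. Eps8l1, a relative of the actin regulator EPS8 (chromosome 7, 4460638 to 4480487), had 837 UMI in 682 Ifnar-/- cells and 348 UMI in 288 Ifnar+/- cells (1.33 [1.15 to 1.52]). The ratio was 0.80 in female and 1.69 in male cells, 1.10 in P14 LK, 0.20 in P0 LSK and -0.61 in P0 LK cells. Adamts13, the protease that cleaves von Willebrand factor (chromosome 2, 26973361 to 27009625), had 58 UMI in 41 Ifnar-/- cells and 0 in Ifnar+/- cells, at least 20.2-fold higher. Of these UMI 49 lay in female and 2 in male cells. Stard6 (242 against 122 UMI, 1.05), Gnal (121 against 57, 1.15), Sult1a1 (83 against 39, 1.15), Wfdc10 (178 against 71, 1.39) and Cd300lf (68 against 35, 1.02) had no dominant cell either. Bcl11b, a T cell commitment factor, had 135 against 52 UMI (1.43) in 14 and 9 cells. Gm26737 had 94 against 19 UMI (2.34, and 2.68 without its top cells) in 31 and 12 cells.

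Stem cell genes were within 1.5-fold. Of 24 measured, none passed 1.5-fold in either direction, and the median was 0.09. Over all 15693 genes, 2.43% were at least 1.5-fold lower and 2.85% at least 1.5-fold higher. Procr, which encodes the surface receptor EPCR (CD201), had 27.32 against 22.95 CPM (0.25 [0.18 to 0.32]), and the transcription factor Mecom 92.6 and 79.8 CPM (0.22 [0.18 to 0.25]). Hlf, a further stem cell factor, was level at 407 and 404 CPM. The stem gate held 64.9% [63.5 to 66.3] of Ifnar-/- and 61.6% [60.2 to 63.0] of Ifnar+/- cells, and a narrower gate on Procr and Mecom 12.8% and 10.9%. In P0 LSK cells the ratios of Procr (1.18) and Mecom (1.27) were larger, and in P14 LK cells negative (-0.25 and -0.20).

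Lymphoid-primed genes leaned the other way. Of 27 measured, 22 had a negative log2 ratio, against 7148 of all 15693 genes. At least 2-fold lower was 1, at least 1.5-fold lower were 3 and at least 1.5-fold higher none. The median was -0.11, or -0.18 without the top cell of each gene. Dntt, the terminal transferase of early lymphoid cells, had 93.9 and 134 CPM (-0.51 [-0.54 to -0.48]). Ebf1, a B lineage factor, had 754 against 1544 UMI (-0.97) in 2.17% and 4.36% of cells, and the interleukin 7 receptor gene Il7r 820 against 1317 UMI (-0.62) in 3.72% and 5.42% of cells. The 2 sexes differed in both, which was not tested: Ebf1 had -0.15 in female and -1.41 in male cells, and Il7r -0.21 and -0.94. Flt3 was level at 161 and 168 CPM. The lymphoid gate held 162 Ifnar-/- cells, 3.69% [3.15 to 4.29], and 286 Ifnar+/- cells, 6.197% [5.52 to 6.93]. In female cells the shares were 3.19% and 5.69%, and in male cells 4.57% and 6.84%. Fewer such cells and less RNA per cell cannot be told apart in library sums. Within the gate Il7r stood at -0.33 and Ebf1 at -0.49, while Ly6d was higher (14.0 against 8.17 CPM). The list's median there was -0.06, with 17 of 25 measured members negative. In the stem gate it was -0.06 (13 of 24 negative) and in the remaining cells -0.03 (17 of 27). In P14 LK cells Il7r (0.67), Ebf1 (0.56) and Dntt (0.16) had positive ratios, and in P0 LSK cells negative ones (-2.25, -0.67 and -1.34), with list medians of 0.01 and -0.59.

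Over all cells, cell cycle and stress programmes were close to level. The 20 G1/S genes had a median of -0.04 and the 20 G2M genes of 0.00, with none past 1.5-fold. After thinning, 58.3% [56.8 to 59.8] against 58.9% [57.5 to 60.3] of cells held 3 or more G2M UMI. The shares were 52.8% and 53.1% in the stem gate, 63.0% and 68.9% in the lymphoid gate and 69.1% and 68.1% elsewhere. In the lymphoid gate (162 and 286 cells) the G1/S median was -0.19, with 18 of 20 genes negative. Medians were 0.05 for cell cycle inhibitors, -0.00 for immediate early genes, 0.01 for the integrated stress response, 0.01 for p53 targets and 0.05 for NF-kB and chemokine genes, and in these 5 lists Ccl5 was the 1 member past 1.5-fold. Trib3, a stress-induced pseudokinase, had 4.67 and 3.44 CPM (0.44 [0.26 to 0.62]), and the p53 target Zmat3 3.56 and 2.80 CPM (0.35 [0.14 to 0.55]). Medians of the granulocyte and monocyte (-0.03), megakaryocyte (0.00), erythroid (-0.19) and fetal (0.13) lists were within 0.2 of 0. The erythroid median was further from 0 than the lymphoid-primed one (-0.11). Of 14 erythroid genes 10 were negative, against 7148 of all 15693 genes. At least 2-fold lower were 2 (0.937% of all genes) and at least 1.5-fold lower 3 (2.43%), while the list summed to 1111 against 1085 CPM.

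Among the 10 antibody tags, CD201 had the largest ratio of shares over all cells. CD201, the protein of Procr, made up 1.49 times as large a share of tag UMI in Ifnar-/- as in Ifnar+/- cells, with a median of 22 UMI per cell (quartiles 9 and 65) against 13 (quartiles 5 and 40). The medians were 39 and 24 in the stem gate, 6 and 4 in the lymphoid gate and 10 and 6 in the remaining cells. The ratio of shares was 1.45 in the stem gate, 1.69 in the lymphoid gate and 1.39 in the remaining cells. It was 1.45 in female and 1.54 in male cells. In barcodes without a cell CD201 made up 4.86% against 3.86% of tag UMI, above its 0.809% and 0.543% in cells, so the low medians of the lymphoid gate cannot be told from background. The ratio of shares was nonetheless largest in that gate. How far background or staining enters the ratios of the other gates and of all cells was not tested. P0 LSK cells had medians of 98 and 28 UMI, P14 LK cells 4 and 3, and P0 LK cells 5 and 7. The spread over cells was wide, and the middle ranges of the genotypes overlap in each gate.

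**Figure D5:**
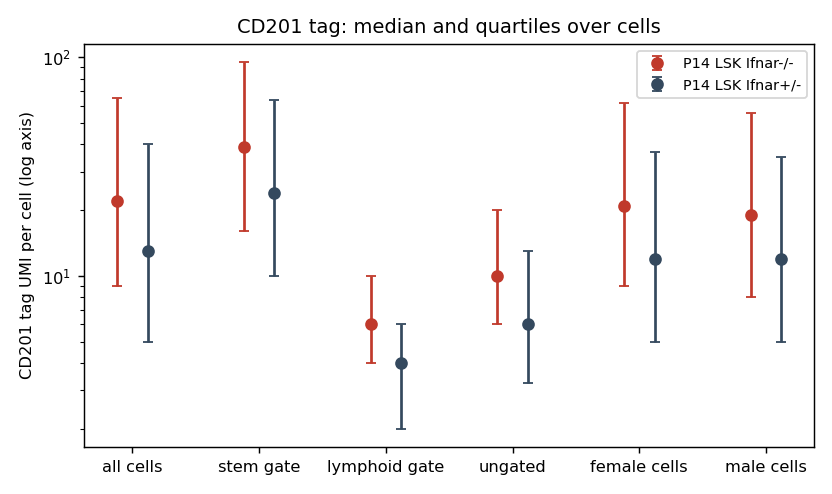
CD201 tag UMI per cell (y axis, log axis) in all P14 LSK cells, in 3 gates and in female and male cells, for Ifnar-/- (red) and Ifnar+/- (dark). Points are medians and bars run between the quartiles over cells, which are not replicates; the Ifnar-/- median is higher in each subset, 22 against 13 over all cells.

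Over all cells the other tags had ratios closer to 1. CD135, the protein of Flt3, had a median of 41 against 34 UMI (ratio of shares 1.18) while Flt3 RNA was level. CD150, the stem cell protein encoded by Slamf1, had 12 against 9 UMI (1.09), with Slamf1 RNA at -0.05. CD127, the protein of Il7r, had a median of 3 against 2 UMI (1.19), close to the lowest level a tag can show, while Il7r RNA over all cells was lower. The CD127 ratio of shares was 1.71 in the stem gate, above that of CD201 there (1.45), and 0.855 in the lymphoid gate. Il7r RNA went the same way as the tag within each of these gates. It had 83 against 37 UMI in the stem gate (1.11 and 0.503 CPM), which are few counts, and 73.3 against 92.0 CPM in the lymphoid gate. CD41, encoded by Itga2b, had 7 against 6 UMI (1.15). CD48 took 63.3% and 60.9% of all tag UMI, so that the other shares move with it. CD117 (Kit), CD34, CD16_32 and CD48 had ratios of shares between 0.973 and 1.04, and the tag named SA_PE, whose target the labels do not give, had 0.839.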

How the data were processed

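The authors deposited raw counts (UMI per feature and barcode, no cell filter) over 32285 genes and 10 tags. Per the file headers they came from Cell Ranger 4, per the submitters' processing notes from Cell Ranger 6.0.1 and build mm10, and per the labels from 10x 3' v3.1 libraries. Gene positions are from RefSeq (GRCm38.p6). UMI were summed over called cells and scaled to CPM (UMI over the library's gene UMI, times 1e6) in Python 3.11.15 (numpy 2.4.6, scipy 1.17.1, pandas 2.3.3). Intervals are exact Poisson for CPM, exact Clopper-Pearson for shares and exact conditional binomial for ratios. Floors of 0 counts are 3 counts in a library. Depth is given in the report. The calculations were tested on simulated data. No doublets were removed, and an alternative without the top 5% of cells by UMI stands in for this.

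The members and the 35 gene lists were chosen with earlier results of these data known, and 4 further lists (neutrophil granule, mast granule, clock, glucocorticoid-responsive) after the values were seen. Named genes are the 12 lower and 12 higher genes with the largest ratios among those past 2-fold without sex genes, in each interferon or MHC list the 5 most abundant members, the 3 most negative and the 1 most positive, and in each other list the 3 most abundant and those past 1.5-fold. Ifnar1, Ifnar2, Ly6a, Kit, Procr, Mecom, Hlf, Dntt, Flt3, Trib3, Zmat3 and Cdk5rap1 were always read. Other names were chosen after their values were seen. Free RNA is the sum over all barcodes with at most 100 UMI. Some results are not reported here.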

Additional observations from a re-analysis of the deposited data

Results flagged for a closer look

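Some genes of mast cells and basophils had opposite directions in different pairs of libraries, at least 2-fold in each, and the difference was not tested. Others kept their direction in P14 LSK, P14 LK and P0 LSK cells, with Ms4a2 at -1.31, -1.40 and -1.10 and Mcpt8 at -1.16, -0.43 and -1.44. In P0 LK cells they did not, with Ms4a2 at 0.03 and Mcpt8 at 0.23. Cma1 had a log2 ratio of -5.52 in P14 LSK, 2.59 in P14 LK and 4.32 in P0 LSK cells. Prss34 had -8.78 in P14 LSK and 5.22 in P0 LSK cells, Tpsb2 -5.19 and 4.41, and Mcpt4 -4.56 and 6.28. In P0 LK cells Cma1 had -0.90, Prss34 0.62, Tpsb2 -0.98 and Mcpt4 -6.41. In P14 LSK cells, 98.3% of the Ifnar+/- UMI of Cma1 lay in 1 cell, as did 98.2% of those of Tpsb2, 93.6% of Mcpt4 and 62.2% of Prss34.

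In barcodes without a cell, which the comparisons do not use, the 8 neutrophil granule genes stood at 760 CPM in the Ifnar-/- and 23.4 CPM in the Ifnar+/- library. Camp alone had 152 and 0.941 CPM there.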

How the results depend on the processing

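No paired analysis was possible because each group had 1 library and the replicate numbers only name it, and for the same reason no library could be left out. The count of genes at least 2-fold lower (73) and higher (18) became 16 and 4 with a pseudocount of 5 CPM, 196 and 187 with a gene minimum of 10 UMI, 47 and 8 with 200 UMI, and 161 and 111 at 1.5-fold. Within 1 sex fewer of the same genes were past 2-fold: of the 49 lower and 27 higher genes in female cells, 43 and 4 were among the 73 and 18, and of the 83 and 11 in male cells, 57 and 3. The higher count was 36 with gates weighted equally, and 10 both without the top cell of each gene and without cells high in granule genes, the last 2 chosen after seeing the data. The core median was -0.88 with 5 CPM, -2.17 in female cells, -2.73 with gates weighted equally and -2.36 with a member minimum of 200 UMI. The difference in cells with at least 5 core UMI (-23.7 points) was -33.3 unthinned, -13.0 at 5000 UMI, -20.9 in female and -25.2 in male cells, -17.2 without Ifi27 and -16.3 without Bst2. The ratio of CD201 shares (1.49) was 1.69 from medians, 1.79 from median shares, 1.51 per gene UMI, 1.45 and 1.54 in female and male cells and 1.62 at 15000 UMI. Both gate differences kept their direction and moved within counting error in every alternative run. Counting error over cells does not cover the spread between libraries or mice. The GTPase median (-0.73) was -0.35 with 5 CPM and -0.52 in female cells, and that of the Ly6 family (-0.28) turned to 0.22 in female cells. The single genes that reversed were ones with a dominant cell. Cma1 was 0.24 at 15000 UMI and 0.25 without granule cells, and Tpsb2 was 0.42 and 0.43 there, and 0.067 without its top cell. In male cells Ngp was -0.93, Chil3 -3.32, S100a9 -1.78 and S100a8 -2.14. Stfa2l1 was -3.88 in female cells, -0.85 without its top cell and -1.16 without granule cells, and Cstdc4 -0.71 in female and -0.91 in male cells, -0.45 and -0.27. Stfa1 was 1.30 without the top 5% of cells, 0.63 in female cells, 0.24 without its top cell and 0.25 without granule cells. The cause of these moves was not tested, apart from the filters and thinning, which change what is counted. TMM factors (edgeR 4.0.16) and median-of-ratios factors moved the median of all genes by about 0.01.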

Other observations

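A small group of genes known to respond to glucocorticoids stood higher in Ifnar-/- P14 LSK cells; the list was chosen after these values were seen. Per1, a clock gene, had 1889 UMI in Ifnar-/- and 1126 in Ifnar+/- cells (0.81 [0.71 to 0.92]), Klf9 1846 and 1061 (0.87 [0.76 to 0.98]), and Ddit4, an inhibitor of mTOR signalling, 1613 and 911 (0.89 [0.77 to 1.01]). Tsc22d3 (GILZ) had 76.3 and 52.5 CPM (0.54), and Fkbp5 51.8 and 43.9 CPM (0.24). Over the 10 members the median was 0.25, with 3 at least 1.5-fold higher, and it was 0.32 in female and 0.30 in male cells. In P14 LK cells Per1 had 0.84, Klf9 0.72 and Ddit4 0.57, and the list's median was -0.03. The 14 clock genes had a median of 0.04.

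Cdk5rap1, a mitochondrial tRNA-modifying enzyme, had 9.72 and 7.36 CPM over all cells (0.40), but 12.4 and 6.57 CPM in female cells (0.91) and 6.70 and 7.70 CPM in male cells (-0.20).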
